A study of Danio rerio with 9 samples.

Results

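The genes that copy the genome were followed in eyes dissected from zebrafish embryos, on 9 Affymetrix arrays with 1 array per condition. Eyes were taken untreated at 24 hours post fertilization (hpf), the pretreatment array, and then from a control and an ethanol group at 27, 30, 36 and 48 hpf. The sources used here give no ethanol dose, no start or end of exposure, no fish strain and no number of embryos behind an array. Values are MAS5 signals, a linear brightness for each probe set, and differences are on the log2(signal + 5) scale, called log2 here. Genes were chosen by a rule on their symbols, made with earlier results of these data known. They were the mcm, gins, pola, pold, pole, prim and rrm genes, the numbered orc, rfc and rpa genes, and pcna, fen1, lig1, gmnn, cdt1, cdc6, cdc45, cdk2, dut, tyms and tk1. The rule found 59 probe sets for 52 of the 8793 named genes on the array, and the probe set with the highest mean signal stood for each gene. Of these 52 genes, 50 were bright enough to be tested. The MCM-family genes mcm9 (signals from 1.57 to 6.57 over the 9 arrays) and mcm6l (1.93 to 6.58) fell under the filter on dim probe sets and were not tested. One member, mcmdc2as, is annotated as an antisense RNA of the gene mcmdc2 and not as a protein-coding gene. It came in through its name, is described apart, and leaves 49 protein-coding genes tested.

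Chromosome replication runs through a fixed order of protein machines. The origin recognition complex, with Cdc6 and Cdt1, loads the ring-shaped MCM helicase onto DNA before S phase, and geminin blocks Cdt1 so that each origin is used once per cycle. In S phase, kinases including Cdk2 let Cdc45 and the GINS complex join the ring, which then unwinds DNA. Primase with polymerase alpha starts each strand, and polymerases delta and epsilon extend it, held on DNA by the PCNA clamp that the replication factor C complex loads. The RPA complex covers single strands, and Fen1 and Lig1 finish the lagging strand. Ribonucleotide reductase and thymidylate synthase supply the nucleotides. In the zebrafish eye, the optic cup is at first made mostly of dividing progenitors, and cells leave the cycle as they become neurons and lens fibres, until division in the retina is left mainly at its margin. The study's title names eye gene expression after ethanol and Heat Shock Factor 1, and the comparisons here ask how the replication genes changed over development and with ethanol.

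The labelled tissue showed its markers. Summed signals of the listed photoreceptor genes ran from 160.4 at 24 hpf to 2838 in the control at 48 hpf, and those of the lens genes from 3689.8 at 24 hpf to 9079 with ethanol at 48 hpf, while the retinal progenitor list stayed between 3529 and 5013. Other tissue was also present in part. At 30 hpf the yolk and liver list summed to 222 without and 2792 with ethanol, the list of brain genes outside the eye to 519 and 1225, and the muscle list to 2137 in the 48 hpf control against 145 to 362 on the other 8 arrays. Groups followed the sample titles. The treatment characteristic contradicted the titles for 3 arrays, the ethanol array at 30 hpf and both arrays at 36 hpf. With no replicates, a p-value rests on how far these arrays scatter around the fitted model, and that scatter may be technical. The fits, made in limma, also draw each gene's spread toward that of all probe sets tested. An SE or p-value is therefore not a measure of that gene's own scatter alone. In whole eyes, fewer cells of a type and less RNA per cell cannot be told apart.

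Replication genes fell together as the eye developed. Over 24 hours of development, 33 of the 50 genes tested were lower by at least 2-fold at an adjusted p under 0.05 in limma, against 7.39% of all probe sets tested, and 0 were higher, against 9.07%. By the adjusted p alone, 44 were lower, against 19.8% of all probe sets, and 0 higher, against 17.6%. The median change was -1.31 (log2 per 24 h), where that of all 9301 probe sets was -0.04. Of the 50 slopes, 49 were below 0, against 52.8% over all probe sets. The 50 slopes ran from -2.11 for the licensing inhibitor geminin, gmnn, to 0.30 for the ribonucleotide reductase subunit gene rrm2b.

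**Figure D1:**
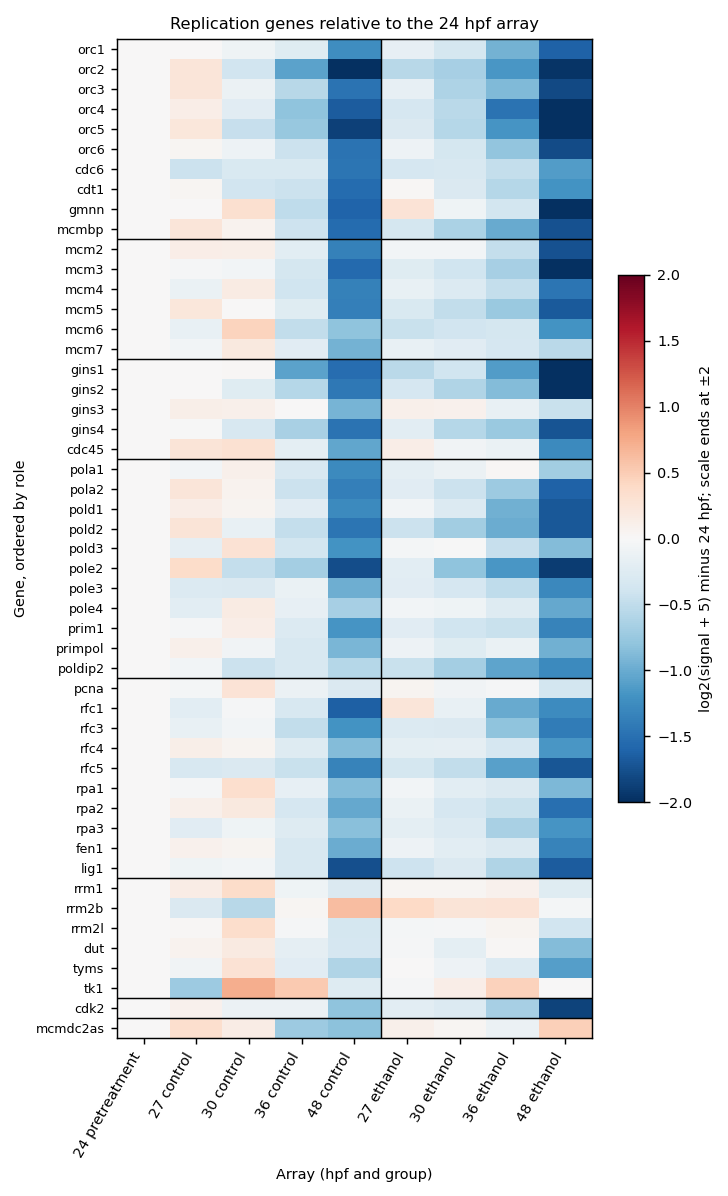
Signals of the 50 replication genes tested on each array, as log2(signal + 5) minus the value at 24 hpf, with genes in rows by role, arrays in columns and the colour scale ending at -2 and 2. The 48 hpf columns of both groups are the darkest blue, and the nucleotide supply rows near the bottom stay pale.

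In the controls, the fall of the median gene came after 30 hpf. Against the untreated eyes at 24 hpf, the median of the 50 genes in the controls at 27, 30, 36 and 48 hpf was 0.01, 0.04, -0.32 and -1.22. From 30 to 36 hpf, 46 of the 50 were lower in the controls, against 44.5% of all probe sets. From 36 to 48 hpf 49 were, against 54.5%. In that last step 14 were lower by at least 2-fold, where 2.15% of all probe sets were. The median of the 50 genes was -0.33 from 30 to 36 hpf and -0.85 from 36 to 48 hpf, which is the longer step. At 48 hpf, 30 genes in the control were at least 2-fold under their 24 hpf signal, against 7.17% of all probe sets, and 37 in the ethanol array were, against 10.1%. For the 30 genes picked in the control, the last 12 hours held 30.4% to 84.8% of the whole log2 difference in the controls, with a median of 69.9%. The same 48 hpf control array picked these genes, which can raise that share. The median gene kept 41.8% of its 24 hpf signal in the 48 hpf control, the lowest being the origin recognition gene orc2 at 23.7%. In 46 of the 50 genes the 2 arrays at 48 hpf were the 2 lowest of all 9. The highest array was at 24, 27 or 30 hpf in 48 of them. These 2 counts were not made over all probe sets, so no share stands beside them. Without the 2 arrays at 48 hpf, 11 genes were called in place of 33, and the median slope was -0.75. Of all 9301 probe sets, 1298 were called in that run in either direction, in place of 1531.

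**Figure D2:**
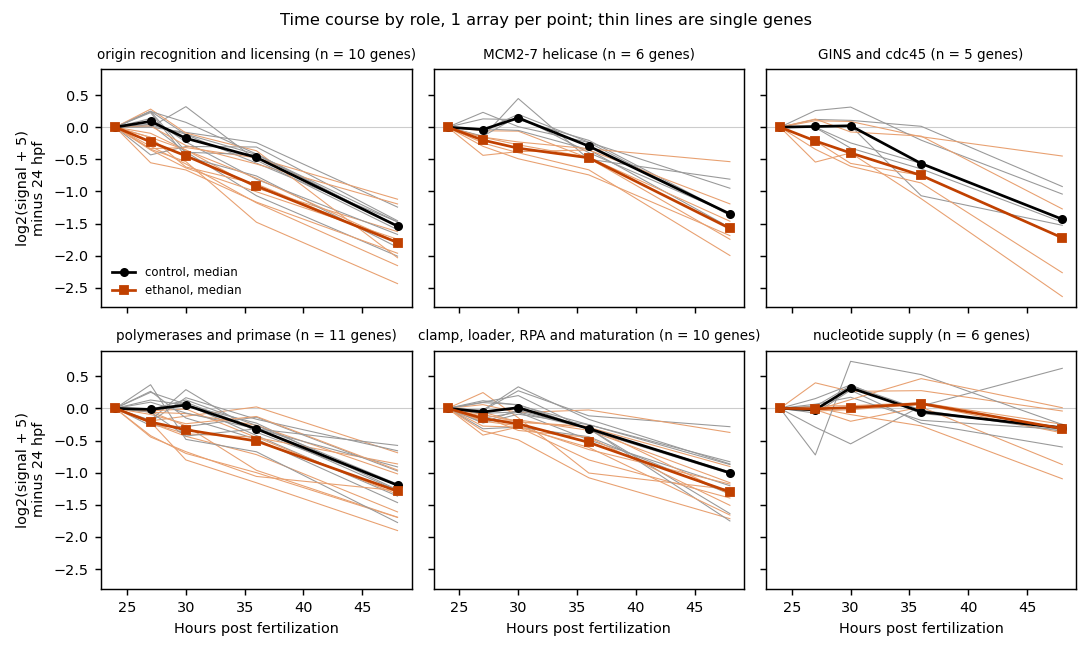
Time course of each role group, with hours post fertilization on the x axis and log2(signal + 5) minus the 24 hpf value on the y axis, 1 array per point. Thin lines are single genes and thick lines the group's median in control (black) and ethanol (orange). At 48 hpf the medians of the nucleotide supply genes end nearest to 0, and those of the other 5 groups well below it.

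Origin recognition and licensing genes had the steepest median slope of the 6 groups with several genes, -1.71, and all 10 tested were called. Geminin's signals were 209 at 24 hpf, 209, 262, 145 and 65.9 in the controls at 27, 30, 36 and 48 hpf, and 255, 196, 161 and 47.4 with ethanol. The 5 arrays up to 30 hpf lay between 196 and 262, above the 4 later ones. Its slope was -2.11 ± 0.26 (SE, 9 arrays, limma adjusted p = 1.18e-04). The gene orc4, a subunit of the origin recognition complex, had signals of 605 at 24 hpf, 665, 515, 343 and 187 in the controls in the same order, and 476, 416, 214 and 108 with ethanol. It was lower at each stage than at the one before in both groups after 27 hpf, and the ethanol array was lower than the control at every stage. Its slope was -2.09 ± 0.19 (adjusted p = 2.32e-05), a 4.27-fold change per 24 hours.

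The other origin recognition genes fell in the same way. For orc2 the signal was 309 at 24 hpf, and at 48 hpf 73.2 without and 75.7 with ethanol, with a slope of -1.99 ± 0.20. The gene orc5 went from 264 to 68.7 and 55.5 (slope -2.06 ± 0.17), and orc3 from 325 to 114 and 89.9 (-1.71 ± 0.17). The adjusted p of these 3 genes ran from 1.67e-05 to 3.72e-05. The slopes of orc6 (-1.71 ± 0.17) and orc1 (-1.45 ± 0.18) were called as well, with signals of 220.4 and 98.9 at 24 hpf and 76.2 and 38.9 in the 48 hpf control. Both helicase loaders were called, cdt1 at -1.47 ± 0.17 and cdc6 at -1.14 ± 0.20 (adjusted p = 8.09e-05 and 0.00106). The call of cdc6 was lost, short of 2-fold, without the 48 hpf control array (-0.82) and in the 4 ethanol arrays alone (-0.95). For these loaders the ethanol array at 48 hpf was the higher one, 63.2 against 48.8 for cdt1 and 93 against 72.7 for cdc6. The gene mcmbp, whose product binds the MCM proteins, had a slope of -1.66 ± 0.19 (adjusted p = 7.01e-05) and went from 530.5 at 24 hpf to 179 in the control and 155 with ethanol.

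Of the 6 tested genes of the MCM helicase ring, 4 were called, and the median slope was -1.49. The steepest was mcm3, with signals of 402 at 24 hpf, 395, 388, 314 and 133 in the controls and 338, 304, 252 and 97.1 with ethanol. It held nearly level in the controls to 30 hpf and was lower with ethanol at each stage. Its slope was -1.78 ± 0.20 (adjusted p = 6.96e-05). The slopes of mcm2 (-1.70 ± 0.22), mcm5 (-1.54 ± 0.19) and mcm4 (-1.45 ± 0.19) had adjusted p from 1.03e-04 to 2.01e-04. From 24 hpf to the 48 hpf control, mcm2 went from 1113 to 433, mcm5 from 751 to 287 and mcm4 from 1110.1 to 434. The remaining subunits, mcm6 and mcm7, had slopes of -0.93 ± 0.24 and -0.77 ± 0.19 (adjusted p = 0.01 and 0.00842), short of the 2-fold limit. For mcm7 the signal was 1142 at 24 hpf, 589 in the 48 hpf control and 786 with ethanol.

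The partners that complete the working helicase were called in 4 of 5 cases, with a median slope of -1.58. For gins1 the signals were 263 at 24 hpf, 265, 267, 123 and 88.1 in the controls, and 179, 198, 119 and 38.2 with ethanol. The controls were level to 30 hpf and then dropped. Of the 50 genes, only gins1 was lower by at least 2-fold between the controls at 30 and 36 hpf, against 0.495% of all probe sets. Its slope was -2.10 ± 0.25 (adjusted p = 1.04e-04). The slopes of gins2 (-1.78 ± 0.19), gins4 (-1.58 ± 0.15) and cdc45 (-1.38 ± 0.21) had adjusted p from 2.49e-05 to 4.79e-04. The fourth subunit gene, gins3, had a slope of -0.85 ± 0.19 (adjusted p = 0.00406), short of the 2-fold limit, with 414 at 24 hpf, 216 in the 48 hpf control and 302 with ethanol.

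Polymerase and primase genes were called in 7 of 11 cases, with a median slope of -1.16, and all 11 passed the adjusted p. The steepest was pole2, a subunit of polymerase epsilon, with signals of 185 at 24 hpf, 240.1, 131, 114 and 50.5 in the controls and 159, 104, 80.2 and 45.9 with ethanol. The 3 highest values were on the arrays at 24 and 27 hpf, and the 2 lowest at 48 hpf. Its slope was -1.88 ± 0.21 (adjusted p = 7.55e-05). Polymerase delta was represented by its catalytic subunit gene pold1 (slope -1.59 ± 0.20) and by pold2 (-1.54 ± 0.17) and pold3 (-1.16 ± 0.21). Polymerase alpha was represented by pola2 (-1.57 ± 0.17) and the catalytic subunit gene pola1 (-1.03 ± 0.23), and its primase by prim1 (-1.25 ± 0.18). These 6 had adjusted p from 6.76e-05 to 0.00412. Of them, pola1 and pold3 rest on the control at 48 hpf. The signals there were 178 in the control and 270.2 with ethanol for pola1, and 126 and 159.8 for pold3. Without that control array the slopes were -0.60 (adjusted p = 0.0863) and -0.92 (0.0249), and neither gene was called. For pola1 the call was also lost in the 4 ethanol arrays alone (-0.60), and just short of 2-fold without the 30 hpf control array, after quantile normalization or at a pseudocount of 20 (-0.99 to -0.97). The epsilon subunit gene pole3 lay just short of the 2-fold limit (adjusted p = 0.00138), and pole4 (-0.85) and primpol (-0.98), a primase used at damaged templates, were short of it too. The gene poldip2, named for its binding to polymerase delta, had the smallest slope of the group, -0.70 ± 0.17 (adjusted p = 0.00819).

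**Figure D3:**
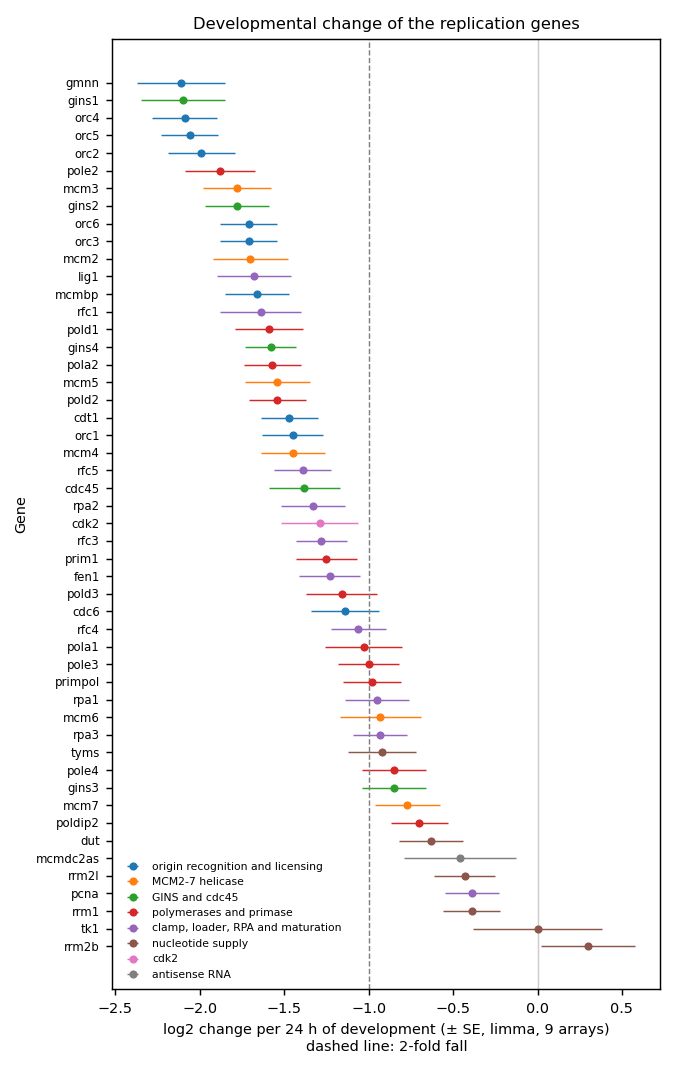
Change per 24 hours of development (log2, x axis) of each of the 50 genes, ordered by size, with bars of 1 SE from limma over 9 arrays and colours by role. The dashed line marks a 2-fold fall. Licensing genes (blue) crowd the steep end at the top, and the nucleotide supply genes (brown) with pcna lie at the bottom.

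The clamp and its surroundings were uneven. Of 10 genes, 7 were called and the median slope was -1.26, but the clamp gene itself, pcna, was not. Its signals were 2505 at 24 hpf, 2447, 3029, 2311 and 2055 in the controls and 2608, 2394, 2462 and 1931 with ethanol. The 2 arrays at 48 hpf were the lowest, yet the control there kept 82% of the 24 hpf signal. The slope of pcna was -0.39 ± 0.16 (adjusted p = 0.0764). The ligase gene lig1, which seals the fragments of the lagging strand, had signals of 658 at 24 hpf, 623, 633, 528 and 192 in the controls and 492, 537, 430.2 and 205 with ethanol. Both arrays at 48 hpf lay under all the others, which were at 430.2 or more. Its slope was -1.68 ± 0.22 (adjusted p = 1.59e-04).

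Among the clamp loader genes, rfc1 (-1.64 ± 0.24), rfc5 (-1.39 ± 0.17), rfc3 (-1.28 ± 0.15) and rfc4 (-1.06 ± 0.16) were all called, with adjusted p from 9.79e-05 to 5.06e-04. In the control at 48 hpf, rfc1 stood at 78.3 against 254 at 24 hpf, and rfc4 at 388 against 715. The call of rfc4 was lost, short of 2-fold, in the 5 arrays without ethanol (-0.98) and without the 48 hpf ethanol array (-0.92). Of the single-strand binding genes, rpa2 was called at -1.33 ± 0.19 (adjusted p = 2.99e-04). Its signals were 1283 at 24 hpf, 1372, 1473, 1013 and 631 in the controls and 1176, 1010.1, 937 and 448 with ethanol. The other subunit genes, rpa1 (-0.95 ± 0.19) and rpa3 (-0.93 ± 0.16), were short of the 2-fold limit with adjusted p of 0.00248 and 9.05e-04. The flap nuclease gene fen1 was called at -1.23 ± 0.18 (adjusted p = 3.28e-04), from 1149 at 24 hpf to 577 in the control and 452 with ethanol.

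Of the 6 nucleotide supply genes, 0 were called, and the median slope was -0.41. The difference from the other groups was not tested. The steepest was tyms, the thymidylate synthase gene, with signals of 984 at 24 hpf, 935, 1198, 838 and 647 in the controls and 989, 919.7, 814 and 458 with ethanol. Its slope was -0.92 ± 0.20 (adjusted p = 0.00349), and both arrays at 48 hpf were the lowest. The gene dut, for the enzyme that destroys dUTP, had a slope of -0.63 ± 0.19 (adjusted p = 0.0243). The large ribonucleotide reductase subunit gene rrm1 had signals of 2393 at 24 hpf, 2659, 3083, 2262 and 1967 in the controls and 2455, 2463, 2541 and 2015 with ethanol. Its slope was -0.39 ± 0.17 (adjusted p = 0.0934), and that of rrm2l was -0.43 ± 0.18 (0.079).

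The gene rrm2b, for the reductase subunit that in mammals is induced by p53 after DNA damage, was the only one with a slope above 0, at 0.30 ± 0.28 (adjusted p = 0.43). Its signals were 65.8 at 24 hpf, 52.8, 43.3, 67.6 and 104 in the controls, and 88.2, 80, 80.7 and 63.8 with ethanol. The control at 48 hpf was the highest array and the control at 30 hpf the lowest, while the 4 ethanol arrays stayed between 63.8 and 88.2. The thymidine kinase gene tk1, which salvages thymidine, was dim, with signals from 12.8 to 43.8 and a slope of 0.00 ± 0.38. The kinase gene cdk2, which drives entry into S phase, was called at -1.29 ± 0.23 (adjusted p = 0.00116). Its signals were 456 at 24 hpf, 483, 418, 422 and 260.1 in the controls, and 394, 375, 286 and 123 with ethanol. The controls held until 36 hpf, and the ethanol arrays were lower at every stage. At 48 hpf the control kept 57% of the 24 hpf signal and the ethanol array 27%. The call rests on the latter: the slope was -0.83 (adjusted p = 0.0344) in the 5 arrays without ethanol and -0.87 (0.00656) without the 48 hpf ethanol array, both short of 2-fold.

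With ethanol, the replication genes lay slightly lower as a group, and no single gene passed the test. Of the 50 genes, 0 were called lower in limma with stage as a block, against 0.624% of all probe sets, and 0 higher, against 1.62%. At an unadjusted p under 0.05, 16 were lower and 0 higher, where 9.15% of all probe sets were lower at that p. The mean difference was below 0 for 41 of the 50, or 82%, against 44.4% of all probe sets. Its median was -0.21 against 0.04. The genes ran from -0.55 for orc4 to 0.39 for the antisense RNA mcmdc2as. With the ethanol array lower at all 4 stages there were 25 genes, where 14.4% of all probe sets were. None of the 50 was higher at all 4, where 17.8% of all probe sets were.

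Scaling changed the count of calls but not the direction. Centring each array on its median moved the median of all probe sets from 0.04 to -0.10, and that of the replication genes from -0.21 to -0.35, so that they stood 0.25 below it in both settings. Then 47 of 50 were lower in the mean over stages. At 27, 30, 36 and 48 hpf, 44, 49, 40 and 40 of the 50 were lower, against 61.6%, 67.1%, 57.2% and 55.8% of all probe sets. The test was passed by 8 of the 50, all lower, against 510 of all 9301 probe sets in either direction. These 8 were cdk2, gins2, mcm5, mcmbp, orc4, pold1, pold2 and poldip2. Grouping the arrays by the treatment characteristic, which leaves no pair at 30 hpf, gave a median of -0.07, with 34 of 50 lower, 0 called and 1 at an unadjusted p under 0.05. On the pairs at 27 and 48 hpf, where both labels match, the median was -0.21, with 39 of 50 lower, 0 called and 5 at an unadjusted p under 0.05.

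**Figure D4:**
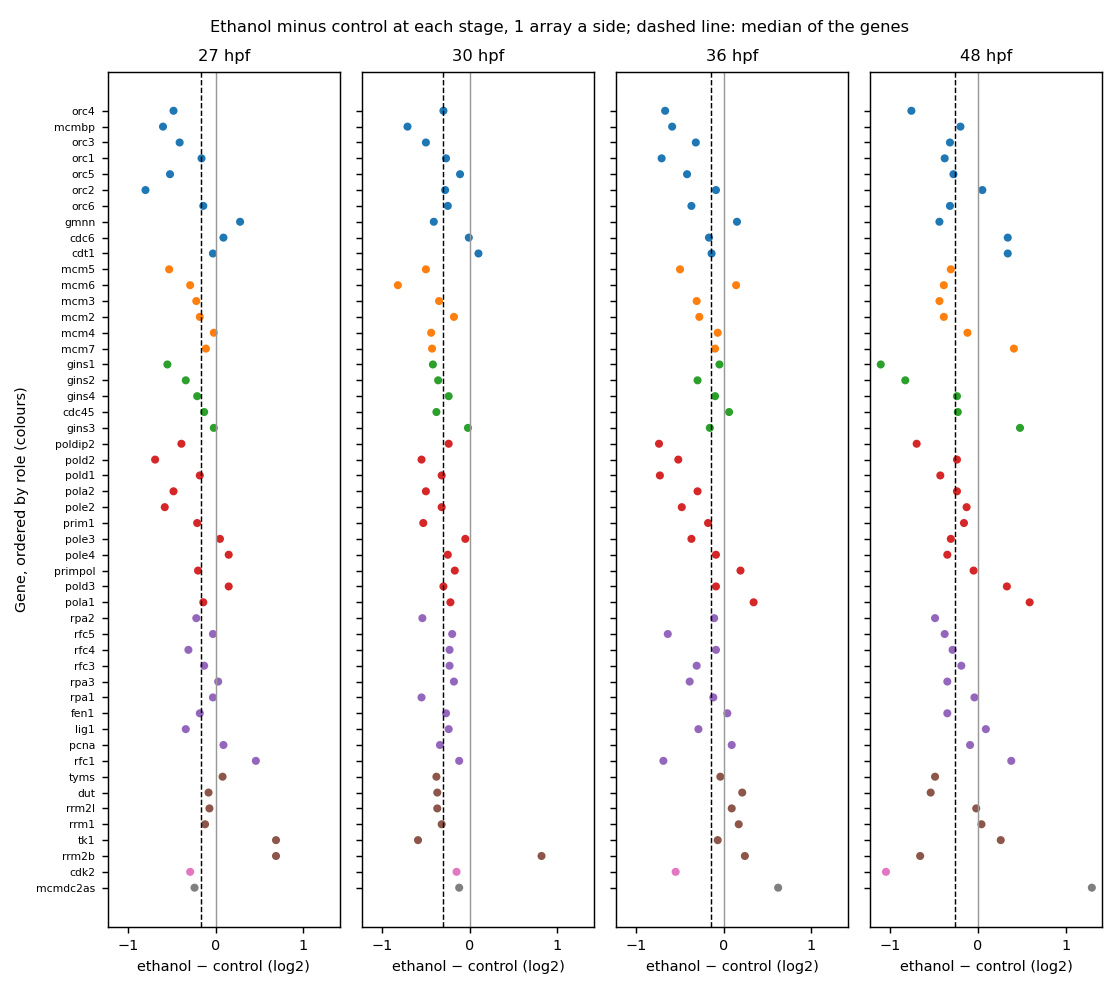
Ethanol minus control (log2, x axis) at each stage for the 50 replication genes, ordered and coloured by role, 1 array a side, with the dashed line at the median of the genes. The median lies left of 0 in every panel, at -0.17, -0.30, -0.15 and -0.26, and the spread between genes is widest at 48 hpf.

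At 27, 30, 36 and 48 hpf, 39, 48, 38 and 38 of the 50 genes were lower with ethanol. Of all probe sets, 44.4%, 43.4%, 48.4% and 50.4% were lower at these stages. The medians were -0.17, -0.30, -0.15 and -0.26, against 0.05, 0.07, 0.02 and 0.00 for all probe sets. At least 2-fold at 48 hpf, 2 of the genes were lower, against 2.15% of all probe sets, and 1 was higher, against 4.8%. The lower ones were gins1 (-1.11) and cdk2 (-1.05), and the higher one was mcmdc2as (1.30). No test is possible within a stage. Against the shared 24 hpf array, the median of the genes in the ethanol series was -0.16, -0.28, -0.49 and -1.34 at 27, 30, 36 and 48 hpf, and in the controls 0.01, 0.04, -0.32 and -1.22. The median gene kept 38.8% of its 24 hpf signal in the ethanol array at 48 hpf.

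The genes that were lower at an unadjusted p under 0.05 came mostly from the origin recognition and licensing, MCM helicase and polymerase groups, which also hold most of the genes tested. Origin recognition and licensing gave 5 of 10 (orc1, orc3, orc4, orc5 and mcmbp) with a group median of -0.31. Of its other genes, orc2 and orc6 stood at -0.28 and -0.27. The licensing genes cdc6, cdt1 and gmnn stood at 0.06, 0.07 and -0.10 (limma adjusted p = 0.816, 0.786 and 0.739). The MCM ring gave 2 of 6 (mcm3 and mcm5) with -0.29. Polymerases and primase gave 5 of 11 (pola2, pold1, pold2, pole2 and poldip2) with -0.27, and the GINS and Cdc45 group 2 of 5 (gins1 and gins2) with -0.20. The clamp group gave 1 of 10 (rpa2) with -0.20, nucleotide supply 0 of 6 with -0.08, and cdk2 was the last of the 16. All 16 were lower at the 4 stages, and their adjusted p lay between 0.0621 and 0.168. For orc4 the mean difference was -0.55 ± 0.13 (moderated SE from 4 stages, limma adjusted p = 0.0621). The differences were -0.48, -0.30, -0.67 and -0.76 at the successive stages. The gene gins1 stood at -0.53 ± 0.17 (adjusted p = 0.121), with -0.55 and -0.42 at 27 and 30 hpf, -0.05 at 36 hpf and -1.11 at 48 hpf. Its value therefore rests least on 36 hpf, where the arrays nearly coincide.

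The size of the difference was nearly the same at 3 stages for mcm5 and varied for poldip2. The signals of mcm5 were 751 at 24 hpf, 882, 755, 636 and 287 in the controls, and 610, 533, 447 and 230 with ethanol. The ethanol array was lower at each stage, by -0.53, -0.50, -0.50 and -0.31, and the mean was -0.46 ± 0.12 (adjusted p = 0.0752). For poldip2 the signals were 247 at 24 hpf, 237, 182, 197 and 164 in the controls, and 180, 153, 116 and 98.7 with ethanol, with a mean difference of -0.52 ± 0.14 (adjusted p = 0.0758). Its differences were -0.39, -0.24, -0.74 and -0.70 at the successive stages. Control and ethanol arrays overlapped across stages for both genes, while within a stage the ethanol array was the lower one each time. The remaining members of the list of 16 with a mean at or beyond -0.50 were mcmbp (-0.52 ± 0.14, adjusted p = 0.0722), cdk2 (-0.51 ± 0.17, 0.118) and pold2 (-0.50 ± 0.13, 0.0738). In the clamp group rpa2 led with -0.34 ± 0.13 (0.168).

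**Figure D5:**
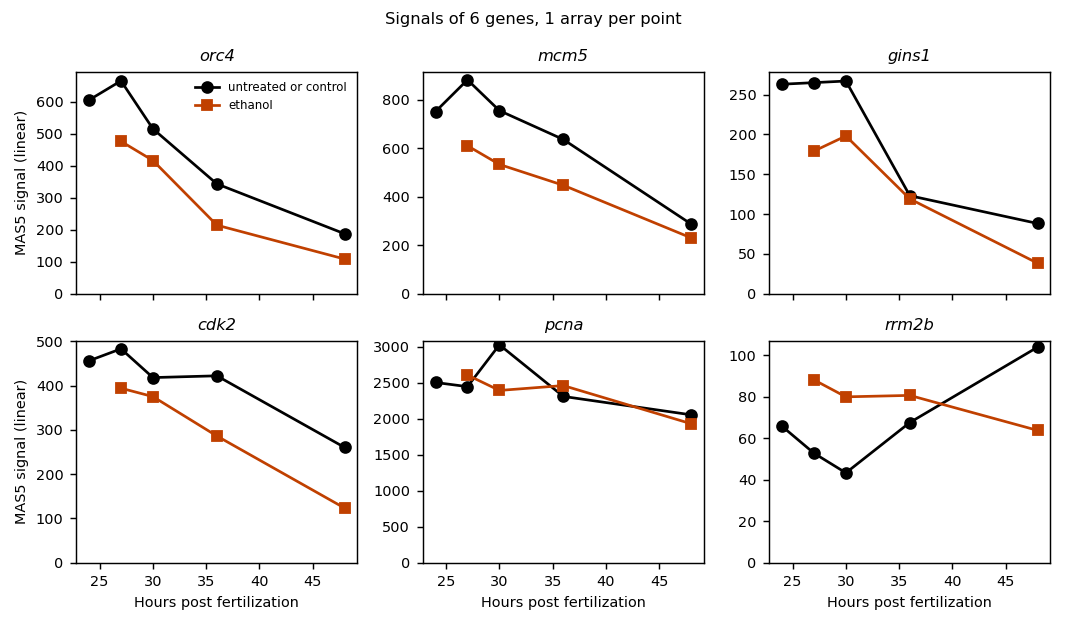
MAS5 signals (linear y axis from 0) of orc4, mcm5, gins1, cdk2, pcna and rrm2b against hours post fertilization, 1 array per point, with untreated and control arrays in black and ethanol arrays in orange. In the first 4 panels the ethanol points lie under the control points at every stage, in the pcna panel they cross, and in the rrm2b panel the order turns at 48 hpf.

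Whether the ethanol difference changed with stage was asked by the product of hpf and ethanol. Of the 50 genes, 0 passed, against 0.118% of all probe sets, and 3 had an unadjusted p under 0.05, where 12.7% of all probe sets did. They were cdk2 (-1.11 ± 0.33 per 24 h, adjusted p = 0.206), rrm2b (-1.31 ± 0.43, 0.235) and the antisense RNA mcmdc2as (1.60 ± 0.47, 0.202). For cdk2 the differences were -0.29, -0.15, -0.55 and -1.05 from 27 to 48 hpf. For rrm2b they were 0.69, 0.82, 0.24 and -0.66, so the mean over stages, 0.27 ± 0.23 (adjusted p = 0.506), combines stages of opposite sign.

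The antisense RNA mcmdc2as had signals of 140.5 at 24 hpf, 179, 157, 82.5 and 77.7 in the controls, and 151, 144, 129.6 and 198 with ethanol. The controls at 36 and 48 hpf were the lowest of the 9, and the ethanol array at 48 hpf was the highest. The mean ethanol difference was 0.39 ± 0.24 (adjusted p = 0.357). Its developmental slope was -0.46 ± 0.33 (adjusted p = 0.287) over 9 arrays, -1.13 (0.0344) in the 5 arrays without ethanol and 0.47 in the 4 ethanol arrays. Of its 3 probe sets, 2, this one included, carry the suffix that Affymetrix gives to probes that may bind other transcripts. The 3 differed by 1.30, 1.17 and 0.58 between ethanol and control at 48 hpf.

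Lists of related genes, chosen with earlier results of these data known, were counted in the same fits. Their counts are a description and not a test. Of 11 tested genes that protect forks and signal to checkpoints, 8 were called lower with development, against 7.39% of all probe sets. By the adjusted p alone 9 were lower, against 19.8%, and the median slope was -1.45. The mismatch repair gene msh6 fell by 2.29 (log2 per 24 h, SE 0.20, adjusted p = 1.99e-05), the polymerase alpha partner gene wdhd1 by 1.70 and the checkpoint clamp gene rad9a by 1.65. With ethanol the list had a median of -0.17 and 1 called member, against 0.624% of all probe sets called lower. This was tipin, a partner of Timeless at the fork. Its signals were 283 at 24 hpf, 317, 328, 247 and 143 in the controls, and 217, 189, 179 and 63.8 with ethanol. The ethanol array was lower at every stage, and the mean difference was -0.72 ± 0.15 (adjusted p = 0.0461). The call was lost with any 1 stage left out (adjusted p from 0.0688 to 0.141), after quantile normalization (0.0792), at a pseudocount of 1 (0.0549), with no filter on dim probe sets (0.0713), under the treatment characteristic (-0.39, 1) and in the 27 and 48 hpf pairs (0.493). The checkpoint gene rad9a was above 0 at every stage, by 0.17, 0.11, 0.31 and 0.50, with a mean of 0.27 ± 0.13 (adjusted p = 0.237).

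Genes of nucleotide synthesis that the symbol rule did not take in were counted as well. Of 11 tested, 7 were called lower with development, against 7.39% of all probe sets, with a median slope of -1.61. They were led by umps (-2.26 ± 0.18), cad (-1.94 ± 0.20) and ctps1a (-1.82 ± 0.18), all of pyrimidine synthesis. With ethanol the median was -0.35, and umps, for the enzyme that makes UMP, was the 1 called lower, against 0.624% of all probe sets. Its signals were 475 at 24 hpf, 554, 413, 251 and 122 in the controls, and 353, 278, 157 and 76.9 with ethanol. The 4 differences lay between -0.66 and -0.56, and the mean was -0.63 ± 0.12 (adjusted p = 0.0428). This call was lost with any 1 stage left out (adjusted p from 0.0556 to 0.162), after quantile normalization (0.0678), with no filter (0.0654), under the treatment characteristic (-0.21, 1) and in the 27 and 48 hpf pairs (0.499).

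Of 10 genes listed for chromatin at replication, a histone variant gene among them, 3 were called lower with development at 2-fold or more, against 7.39% of all probe sets. They were the assembly factor gene chaf1b (-1.70 ± 0.22), the remodeller gene hells (-1.66 ± 0.20) and the maintenance methyltransferase gene dnmt1 (-1.47 ± 0.21). By the adjusted p alone 9 of the 10 were lower, against 19.8% of all probe sets, and the median slope was -0.90. All 10 had a mean below 0 with ethanol, where 44.4% of all probe sets did, with a median of -0.28. At all 4 stages 4 were lower, against 14.4%. This list too was chosen with earlier results of these data known, so its counts are a description. Of the 10, 1 was called lower, against 0.624% of all probe sets. It was the histone variant gene h2ax (-1.22 ± 0.13, adjusted p = 0.00671), whose developmental slope was 0.00 ± 0.20. Its call was lost without the 36 hpf arrays (adjusted p = 0.0833), under the treatment characteristic (-0.40, 1) and in the 27 and 48 hpf pairs (0.46). The next largest ethanol difference in the list was that of chaf1b, at -0.46 ± 0.17 (limma adjusted p = 0.151). Of 19 S phase regulators, 2 were called lower with development, against 7.39% of all probe sets, and 1 higher, against 9.07%. By the adjusted p alone 11 were lower, against 19.8%, and 1 higher, against 17.6%, and the median slope was -0.62. Called lower were the cyclin gene ccne1 (-1.59 ± 0.26) and the pocket protein gene rbl1 (-1.05 ± 0.20). The cyclin kinase inhibitor gene cdkn1bb was called higher, by 1.06 (SE 0.22, adjusted p = 0.00327). Without the 48 hpf control array rbl1 was at -0.79, and without the 27 hpf control array cdkn1bb was at 0.93, both short of 2-fold. The median ethanol difference of the 19 regulators was 0.00, with 0 called and 1 at an unadjusted p under 0.05.

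Marker lists of the eye and of other tissues stood at different ethanol differences. The median was 0.03 for the lens list and 0.11 for early retinal neurons, with 4 of 6 above 0. The early neuron list was split, with elavl4 (0.74) and elavl3 (0.38) the highest. Its 2 genes below 0 were isl1a (-0.43) and atoh7 (-0.27), and 0 were called. The median was -0.21 for pigment cells and -0.24 for muscle, with 2 genes tested in each. The muscle value combines stages of opposite sign. At 27, 30, 36 and 48 hpf, actc1b differed by 0.16, 0.77, 0.27 and -2.64, and ckma by 0, 0.82, 1.07 and -2.36. The lists were chosen with earlier results of these data known, so their counts are a description and not a test. Of all 9301 probe sets, 5172 were above 0 with ethanol, and 1.62% were called higher. All 9 tested genes of the list for brain outside the eye had a mean difference above 0, with a median of 0.62 and 3 called higher. At all 4 stages 3 of them were higher, against 17.8% of all probe sets. At 27 hpf tbr1b and emx3 were lower with ethanol (-1.57 and -1.13), and gbx2 was lower at 36 and 48 hpf (-0.34 and -0.53). The summed signal of the list was 405 to 964 on the control arrays and 793 to 1225 on the ethanol arrays, with the control the higher one at 27 hpf. Its hindbrain markers egr2b and hoxb1a were at or near 0 on all arrays, with signals up to 4.09 and 5.28. The marker hoxb3a, under the filter and not tested, had signals of 4.3 at 24 hpf, 2.68, 4.15, 2.2 and 5.87 in the controls and 15.4, 14.8, 15.2 and 7.02 with ethanol, higher in the ethanol array at each stage. All 7 yolk and liver genes had a mean above 0, with a median of 1.38 and 2 called higher. The differences were largest at 30 hpf, at 2.74 to 3.77. At 36 hpf apoc1, apoa4b.1 and apobb.1 were lower with ethanol (-0.78, -0.52 and -0.35), and 4 of the 7 were higher at all 4 stages. The sums were 2371 in the untreated eyes at 24 hpf, 222 to 1305 in the controls and 523 to 2792 with ethanol. All 3 tested blood and vessel genes had a mean above 0 as well, with 2 called higher. All 6 tested photoreceptor genes had a mean below 0, against 44.4% of all probe sets, with a median of -0.55. At all 4 stages 2 were lower, against 14.4%. Of the 6, 1 was called lower, against 0.624% of all probe sets. The retinal progenitor list had a median of 0.04, with 4 of 11 below 0 and 0 called. At an unadjusted p under 0.05, 3 of its genes were higher, where 1373 of the 9301 probe sets were. Its median developmental slope was 0.34, with 5 genes higher and 1 lower by the adjusted p. Whether this list follows the number of dividing cells was not tested. The part of these tissues in the ethanol difference of the replication genes was not tested. Leaving out the 30 hpf arrays, where the yolk sum differed most between the groups, gave a median of -0.18 for the 50 genes, with 38 below 0. Leaving out the 48 hpf arrays gave -0.21, with 46 below 0. These runs cannot separate the part of other tissue, because its sums differed at every stage. The brain sums in control and ethanol were 964 and 793 at 27 hpf, 454 and 819 at 36 hpf, and 405 and 1121 at 48 hpf. Other tissue also changed along development. The yolk and liver sum was 2371 at 24 hpf, against 299 in the control and 523 with ethanol at 48 hpf. All 7 genes of that list were called lower, with a median slope of -2.53, against 7.39% of all probe sets. The brain list had a median slope of -1.08, with 7 of 9 below 0. Muscle and blood had median slopes of 1.87 and 1.62. The part of these tissues in the fall of the replication genes was not tested. Leaving out the 48 hpf control, where the muscle sum was 2137, gave 31 developmental calls, of which 30 were among the 33. Leaving out any other single array gave 32 to 38 calls. Of all probe sets, 1764 were called in either direction without the 48 hpf control, and 1459 to 1631 without another single array.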

How the data were processed

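Per the labels' protocols, total RNA of dissected eyes was run on Affymetrix arrays. The deposited intensity values are MAS5 signals on a linear scale, per the submitters' processing notes, and their version is not given in the sources used. With 2% of values trimmed from each end, every array had a mean of 125.02, which shows an earlier scaling, and no other was applied. Mismatch subtraction in MAS5 makes dim signals noisy. The number of arrays limits the precision.

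Of 15617 probe sets, 115 were controls and were dropped. The scale was log2(signal + 5), with 5 near the 20th percentile of all values (5.44), which understates changes of dim genes. The upper 60% by mean log2 value, 9301 probe sets, was tested. Names came from the platform annotation, in which 10802 probe sets have 1 symbol, 135 several and 4680 none, and 10718 were looked up by gene identifier in a RefSeq table. Fits used limma 3.58.1 in R 4.3.3 with Benjamini-Hochberg adjustment over all 9301. The ethanol fit used 8 arrays with stage as a block and 3 residual degrees of freedom, before limma's moderation of variances over all probe sets tested. Development was a slope on hpf in all 9 arrays, with a term for ethanol, called at an adjusted p under 0.05 and at least 2-fold per 24 h. The interaction was their product.

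Members and lists were chosen with earlier results of these data known. Members that passed a test, and those with the largest change in each role group, were to be given with all 9 signals. Of those, the largest of each group have all 9 here, and the rest their slopes and, for most, their first and last signals. The 9 signals of pcna and rrm1 were added after their values were seen. Other lists give up to 3 called genes a test. Alternatives were scaling, pseudocounts of 1 and 20, the filter, the treatment characteristic, probe set choice, each stage left out, and subsets of arrays. Planned promoter and protein sequences were not used here.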

Additional observations from a re-analysis of the deposited data

How the results depend on the processing

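The median developmental change of the replication genes kept its direction under every alternative run. The number of genes called was 30 to 41 under other scalings, pseudocounts, filters, labels, a slope on log2 of hpf and subsets by treatment, and 44 with no fold limit. Over all probe sets, the calls in either direction ran from 624 in the upper 30% to 2129 with no filter, and were 3478 with no fold limit. Leaving out a stage gave 11 to 38 calls and medians from -1.43 to -0.75, the smallest without the 48 hpf arrays. Of all probe sets, 1298 to 1631 were called in those runs. Of the 33 calls, 31 were shared with the 33 in the arrays without ethanol and 31 with the 35 in the 4 ethanol arrays. The median ethanol difference was -0.24 to -0.18 with a stage left out, -0.35 with each array centred on its median and -0.07 with groups by the treatment characteristic. The genes passing the ethanol test numbered 8 with centring, 1 (orc4) at a pseudocount of 20, 5 (mcm5, mcmbp, orc4, pold2 and poldip2) in the upper 30% of probe sets, where fewer are adjusted for, and 0 otherwise. For all probe sets the ethanol calls were 209 as reported, 510 with centring, 327 at a pseudocount of 20, 67 with no filter, 23 after quantile normalization, 14 without the 30 hpf and 4 without the 36 hpf arrays. Among single genes, rrm2b turned from 0.27 to -0.07 with ethanol under the treatment characteristic, and mcmdc2as from -0.46 to 0.47 for development in the 4 ethanol arrays alone. For the moves with centring and the pseudocount the cause was not tested. The runs without a single array at 27 to 48 hpf, on the 4 ethanol arrays and on protein-coding genes alone were chosen after seeing the data. The ethanol fit pairs the arrays by stage. No paired analysis by replicate number was possible because the titles carry none. The depth of array signals is not known, and mcm9, mcm6l and tk1 lay near background.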

Other observations

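Genes of mitosis were counted in the same fits. Of 13 tested genes, 0 were called lower with development, against 7.39% of all probe sets, and 2 were lower by the adjusted p alone, against 19.8% (the cyclin gene ccnb1 at -0.56 and the spindle checkpoint gene mad2l1 at -0.63), and the median slope was -0.22. Their median ethanol difference was -0.03, with 0 called and 1 at an unadjusted p under 0.05. The difference between the lists was not tested.

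Second probe sets of the same genes gave a look at reading error. For mcm3 the dimmer probe set had a developmental slope of -1.31 beside -1.78, for pold1 -1.57 beside -1.59, and for rfc4 -1.51 beside -1.06, all with adjusted p of 0.00549 or less. Their mean ethanol differences were -0.24 beside -0.33, -0.19 beside -0.42 and -0.16 beside -0.23. At single stages they parted: for rfc4 the brighter probe set differed by -0.29 at 48 hpf and the dimmer by 0.09, and for pold1 by -0.43 and 0.09.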
